A study of Ovis aries with 91 samples.

Results

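Whole tissue of the left atrial appendage, a pouch of the left atrium, was compared between sheep in the state labelled chronic and control sheep. Atrial fibrillation had been induced by a tachypacing device, which paces the heart fast, implanted in the right atrium. The chronic group was sheep D15, D16 and D19. The control group joined sheep S3 and S4, labelled sham, with C1. The titles of its left tissue samples call C1 control, while those of its right tissue samples and its columns in the table call it sham. The labels give no strain, age, sex or length of pacing for any group and state the pacing treatment in the same words for every sample, controls included, so whether the control sheep carried a device is not known from them. Transition sheep (D24, D27 and D30), which the labels place in a separate condition, serve for comparison, and their libraries also enter the pooled spread behind every p-value. The members were chosen by region, material and state, and are 12 of the 91 sequenced lanes labelled in the series, or 6 of the 36 sheep columns in the appendage tables after lanes had been merged. All genes of the tissue table with a mean log2 CPM (log2 of reads scaled to a common library size) of 0 or more entered, which were 12333 of 13187 listed genes.

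In atrial fibrillation the atria are activated rapidly and without order, and the atrial wall is known to change with time. Ion channels and calcium handling of the muscle cells shift, contractile structure is lost, and fibroblasts lay down matrix between the muscle bundles. Whole appendage tissue holds cardiomyocytes together with fibroblasts, endothelial, vascular and blood cells, so a level in it reflects every one of these cells. In such bulk samples fewer cells of a type and less RNA per cell cannot be told apart.

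The tables list Ensembl sheep gene IDs with no symbol beside them, and 0 of 13782 found a symbol in the RefSeq table at hand. Genes are therefore given by ID, their functions are not stated, lists of pathway genes and of cell type markers could not be applied, and the tissue label was not checked against markers. The 6 left tissue libraries held 7089908 to 12715615 reads over the listed genes, and the 10 most abundant genes took 17.7% to 22.2% of them. The authors' scaling factor was lowest, at 0.828, in chronic sheep D15 and at most 0.994 in the others. On the first principal component of the 6 libraries, with 43.3% of the variance, the chronic sheep scored 34.9 to 38.7 and the control sheep −43.5 to −29.2. No library of the 6 lay on the side of the other group.

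Chronic sheep differed from controls in 924 genes of left appendage tissue, of which 546 rose and 378 fell. The risers were 4.43% and the fallers 3.06% of the genes tested (limma, adjusted p under 0.05 after Benjamini-Hochberg adjustment over 12333 genes). At an unadjusted p under 0.05 there were 2961 genes. Risers increased by 0.39 to 6.35 on the log2 scale with a median of 1.17, a fold of 2.25, and fallers changed by −5.63 to −0.38 with a median of −0.95, 1.94-fold lower. The median over all genes tested was −0.0071. A change of 2-fold or more was seen in 331 risers (60.6%) and 176 fallers (46.6%), one of 4-fold or more in 106 and 35, and one of 8-fold or more in 36 and 12. The split by direction depended on scaling: scaled by library totals alone, 409 rose and 561 fell, and the share of risers among called genes went from 59.1% to 42.2%. Without C1 the counts were 280 and 170, without D19 295 and 145, without S3 339 and 214 and without S4 345 and 178, each over 1.5 times smaller in both directions. Without D16 they were 367 and 307, and without D15 513 and 416. Without transition sheep D24, which is in neither group, they were 434 and 277. The number called thus varied with the sheep included. Fewer sheep also lower the power of a fit, and the part of single sheep was not tested apart from that.

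**Figure D1:**
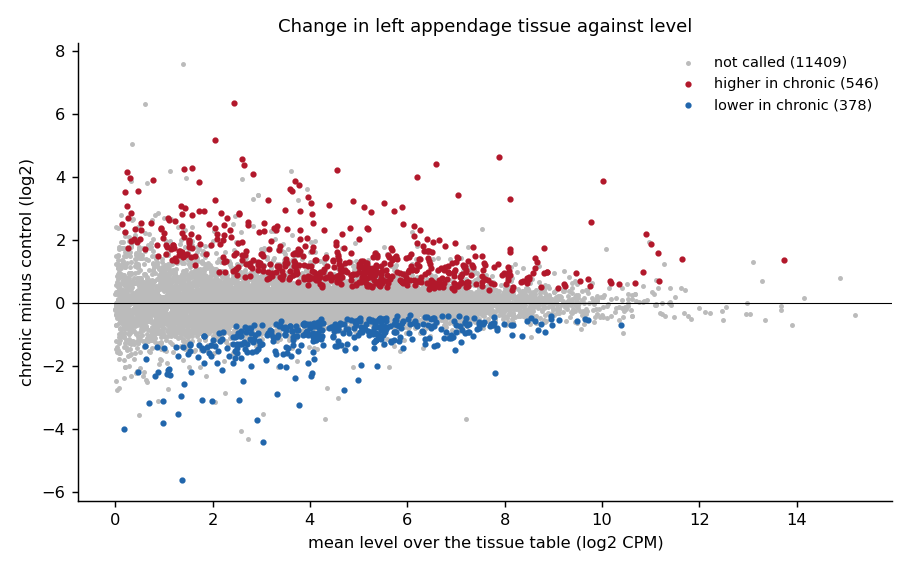
Difference between chronic and control left appendage tissue (log2, y axis) against the mean level over the tissue table (log2 CPM, x axis), 1 point per gene. The 546 genes that rose (red) and 378 that fell (blue) lie at every level, and the smallest called changes lie among abundant genes.

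The gene with the lowest p of all, ENSOARG00000012673, rose from a low to a high level. It stood at 3.79, 4.21 and 3.71 log2 CPM in control sheep S3, S4 and C1 and at 7.92, 8.59 and 7.19 in chronic sheep D16, D15 and D19. The lowest chronic sheep, D19, was far above the highest control, S4. The group means were 3.90 ± 0.27 and 7.90 ± 0.70 (SD, n = 3 each), a difference of 4.0 ± 0.32 (SE), or 16-fold (limma, adjusted p 7.48e-06).

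ENSOARG00000000248, the riser next in p among called genes above the median level whose groups did not overlap, had 0.77, 2.54 and 2.73 log2 CPM in S3, S4 and C1 and 6.24, 6.22 and 6.20 in D16, D15 and D19. Chronic sheep lay almost on one value (SD 0.020, n = 3), while the controls were spread, with S3 well below S4 and C1 (SD 1.08, n = 3). The difference was 4.21 ± 0.46 (SE), 18.5-fold (limma, adjusted p 0.000196). In reads this gene had 21 in S3, 47 in S4 and 46 in C1, against 504 to 630 in the chronic libraries.

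Among fallers within the same limits of level and overlap, ENSOARG00000010539 had the lowest p. Its level was 5.45, 6.01 and 6.26 log2 CPM in S3, S4 and C1, and 3.25, 3.30 and 3.80 in D16, D15 and D19. The groups did not overlap, and the difference of −2.46 ± 0.32 (SE) made it 5.49-fold lower in chronic sheep (limma, adjusted p 0.000543). ENSOARG00000007684 fell by 2.78 ± 0.38 (SE), 6.86-fold, from 6.09, 6.89 and 5.38 in S3, S4 and C1 to 3.34, 3.84 and 2.84 in D16, D15 and D19 (limma, adjusted p 0.000678). Sheep of a group differed more here than for the preceding gene (SD 0.75 in controls and 0.50 in chronic sheep, n = 3 each). The highest chronic sheep was D15 and the lowest control C1, and the lack of overlap was a condition for naming the gene. The left tissue calls of these 4 genes were kept under each alternative setting run and without each of the 6 sheep.

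**Figure D2:**
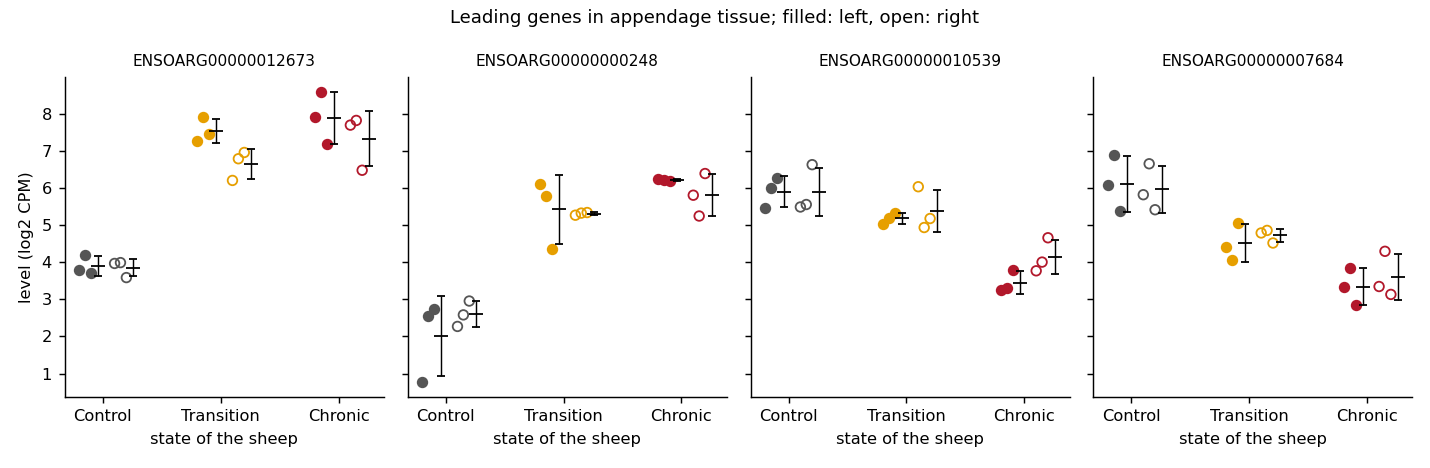
Level (log2 CPM) of the 4 leading genes in appendage tissue of control, transition and chronic sheep, 1 point per sheep, with the mean and SD of 3 sheep at the side of each set; filled points are left and open points right appendage. In each panel left chronic and left control sheep do not overlap, as the rule for naming genes required. ENSOARG00000010539 is the gene whose left transition sheep (5.02 to 5.33) lie nearest the controls.

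Called genes were found over the whole range of expression. With genes split by mean level into 4 bins of equal size, from lowest to highest, 107, 109, 135 and 195 genes rose, which were 3.47%, 3.54%, 4.38% and 6.33% of each bin. Fallers were 72, 101, 98 and 107, or 2.33%, 3.28%, 3.18% and 3.47%. The size of a called change ran the other way, with a median of 2.03 among risers of the lowest bin and 0.96 in the highest, and −1.53 and −0.72 among fallers. The median standard error of all genes fell alongside, from 0.42 to 0.17, so a change of moderate size could be called among abundant genes and not among scarce ones.

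The 3 chronic sheep moved by similar amounts. Measured from the control mean, the median over risers was 1.14 in D16, 1.12 in D15 and 1.18 in D19, and over fallers −0.88, −0.92 and −1.01; these genes were selected on the same libraries, so the values describe the sheep and test nothing. Chronic and control sheep did not overlap in 537 risers and 372 fallers, where 27.9% of all genes tested did not overlap in either direction. The other 9 risers and 6 fallers overlapped in at least 1 sheep. Spread within groups was alike for risers, with median SDs of 0.29 in controls and 0.28 in chronic sheep, and for fallers it was 0.21 and 0.27, against 0.23 and 0.26 over all genes. Controls differed widely from each other, with an SD over 1, in 44 risers (8.06%), against 3.29% of all genes and 1.85% of fallers. ENSOARG00000000248 is such a riser. In chronic sheep an SD over 1 was seen in 11 of 546 risers, 15 of 378 fallers and 400 of 12333 genes tested.

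Right appendage tissue of the same 6 sheep gave fewer calls. There 117 genes rose (0.949% of those tested) and 38 fell (0.308%), and 1965 had an unadjusted p under 0.05 (limma). That count too varied with the sheep included: the 155 genes became 429 without D15, 84 without transition sheep D24, 75 without S3, 62 without S4, 49 without D19, 40 without C1 and 38 without D16. Of the 546 left risers 84 also rose on the right, which is 15.4% of the left list and 71.8% of the right one, and of the 378 left fallers 31 fell, 8.20% and 81.6%. The number called in opposite directions on the 2 sides was 0. The median right change was 0.63 over left risers and −0.55 over left fallers, beside 0.0055 over all genes. Since left and right samples came from the same sheep and the genes were selected on the left, these medians are no separate evidence, nor do they compare the sides.

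The difference between sides was tested directly as the left change minus the right change. It was called for 0 genes in limma (lowest adjusted p 0.142), 815 genes or 6.61% had an unadjusted p under 0.05, and voom weights on the recovered reads also gave 0. The count was 1 without S3 and 3 without transition sheep D27. Hence the larger number of left calls does not show that the sides differ in any given gene. For ENSOARG00000012673 the right change was 3.48 (limma, adjusted p 2.97e-05) and the difference between sides 0.51, with a 95% confidence interval of −0.29 to 1.32. ENSOARG00000000248 rose by 3.21 on the right (limma, adjusted p 0.00246), with a difference between sides of 1.0 and an interval of −0.16 to 2.15. On the right ENSOARG00000010539 fell by 1.75 (limma, adjusted p 0.0141, but 0.0818 without C1 and 0.0813 without D16) and ENSOARG00000007684 fell by 2.37 (limma, adjusted p 0.00586). For these the differences were −0.71 (−1.52 to 0.099) and −0.41 (−1.35 to 0.53). All 4 intervals hold 0, and the upper limits for the risers also allow a left change more than 2-fold larger.

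Among called genes of right tissue above the median level whose groups did not overlap, the lowest p values belonged to ENSOARG00000012673 and ENSOARG00000015847 for risers and to ENSOARG00000007684 and ENSOARG00000022521 for fallers. ENSOARG00000015847 was abundant in left tissue, at 8.48, 8.44 and 7.90 log2 CPM in S3, S4 and C1 and 9.39, 9.79 and 9.88 in D16, D15 and D19. It rose on the left by 1.41 ± 0.18 (SE; limma, adjusted p 0.000311) and on the right by 1.76 (limma, adjusted p 6.58e-05). Left levels of ENSOARG00000022521 were 6.02, 5.58 and 6.21 in S3, S4 and C1 and 5.02, 5.04 and 4.68 in D16, D15 and D19. It fell by 1.02 on the left (limma, adjusted p 0.0122), a call lost without C1 (0.0687) or D19 (0.0598), and by 1.41 on the right (limma, adjusted p 0.0067). Neither gene had chronic and control sheep overlapping in the left appendage.

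**Figure D3:**
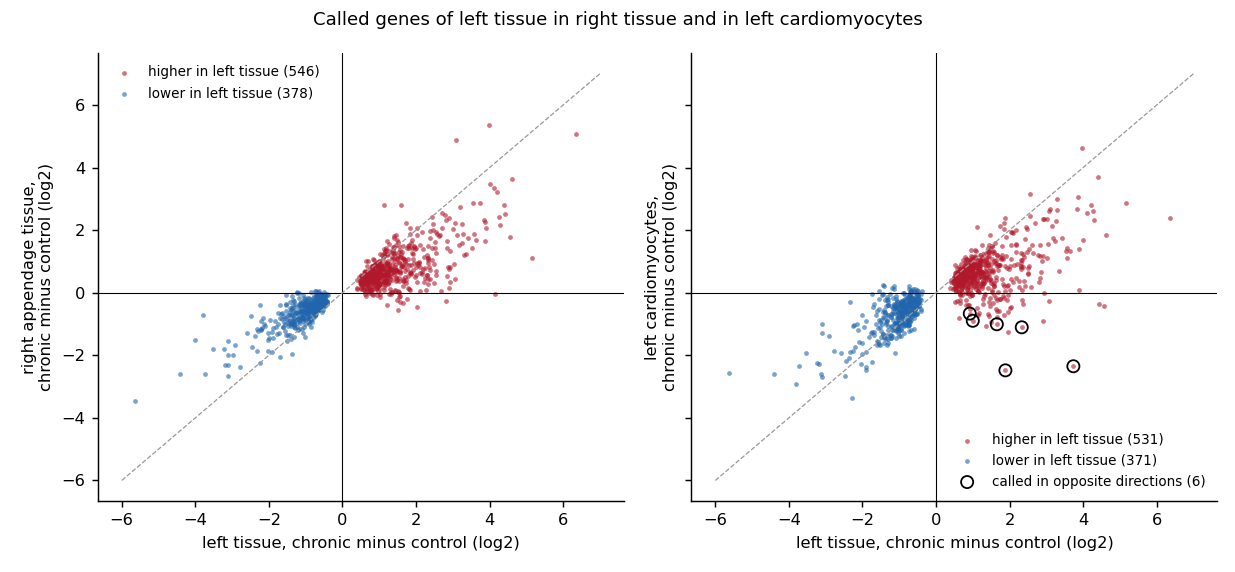
Change between chronic and control sheep (log2) of the genes called in left tissue (x axis) against their change in right tissue (left panel, y axis) and in left cardiomyocytes (right panel, y axis); red genes rose and blue genes fell in left tissue, and the dashed line marks equal change. Most points lie on the same side of 0 in both panels, and the 6 circled genes rose in tissue and fell in cardiomyocytes.

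Left tissue of transition sheep shows where the named genes stood in the other paced group. This comparison with controls uses the same control libraries as the chronic one, so the values are given side by side. The level of ENSOARG00000012673 was 7.28, 7.91 and 7.44 log2 CPM in D24, D27 and D30, within the range of the chronic sheep. ENSOARG00000000248 was at 6.11, 5.80 and 4.36, with D30 below the others and every transition sheep below every chronic one. ENSOARG00000010539 was nearer controls than chronic sheep, at 5.02, 5.20 and 5.33, yet each was below the lowest control, S3 at 5.45. ENSOARG00000007684 lay between the groups at 4.41, 4.05 and 5.06. In the comparison with controls 184 of 12333 genes tested were called, 131 higher and 53 lower (limma), and 1811 (14.7%) had an unadjusted p under 0.05. Against controls the transition change of ENSOARG00000010539 was −0.72 (limma, adjusted p 0.301), beside −2.46 in chronic sheep. The other named genes were called. ENSOARG00000012673 rose by 3.65 (limma, adjusted p 3.03e-05) and ENSOARG00000000248 by 3.41 (limma, adjusted p 0.00144), and ENSOARG00000007684 changed by −1.61 (limma, adjusted p 0.0436).

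Chronic and transition sheep were also compared directly. No gene was called (0 of 12333, limma, lowest adjusted p 0.0963), while 1352 genes, or 11%, had an unadjusted p under 0.05. With voom weights 0 were called as well. That lowest adjusted p was shared by 7 genes. ENSOARG00000010539 was among them and was 1.73 lower on the log2 scale in chronic than in transition sheep, 3.33-fold, with no overlap between the 3 sheep of each group. For ENSOARG00000012673 the difference was 0.35, with a 95% confidence interval of −0.32 to 1.03, and for ENSOARG00000000248 0.80, with an interval of −0.18 to 1.77. ENSOARG00000007684 differed by −1.17 (limma, adjusted p 0.261). The count was 11 without D16, 7 without C1, 2 without D15, 8 in a fit of left samples alone and 35 with sample quality weights, so 0 called does not show that the states were alike.

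Isolated cardiomyocytes of the left appendage, the contracting muscle cells, were sequenced from the same 3 control sheep and from chronic sheep D16, D19 and D20, so 2 of the 3 chronic sheep are shared with tissue. Their table was normalised separately, so no test was made across the tables. In these cells 471 genes rose (3.84% of 12279 tested) and 467 fell (3.8%). The total of 938 was 320 without D19, 454 without S3 or without C1, 464 without S4 and 488 without D16. Of the tissue risers tested in both tables, 189 of 531 also rose in cardiomyocytes, 35.6% of these tissue risers and 40.8% of the cardiomyocyte risers, with 6 that fell. Of the fallers 128 of 371 fell, 34.5% and 28%, and 0 rose. The medians in cardiomyocytes were 0.63 over tissue risers and −0.62 over tissue fallers, against −0.0041 over all genes, with the same sheep behind most values. Calls in right tissue and in left cardiomyocytes together were shared by 54 risers and 12 fallers, and 306 risers (57.6%) and 225 fallers (60.6%) of those tested in both tables were called in neither, in any direction. Over all genes tested, right tissue called 155 of 12333 and left cardiomyocytes 938 of 12279. Most genes were thus called in neither, whatever their left tissue call, and these shares are no trait of the left list.

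The leading tissue genes were present in these cells too. ENSOARG00000012673 rose by 1.67 in left cardiomyocytes (limma, adjusted p 0.000256), from 5.84, 6.03 and 5.47 log2 CPM in S4, S3 and C1 to 7.83, 7.26 and 7.26 in D16, D19 and D20. Its control level was thus higher in the cardiomyocyte table than in the tissue table, while the chronic levels of D16 and D19 were close in the 2 tables. ENSOARG00000000248 rose by 2.79 (limma, adjusted p 0.0198), a call lost without C1 (0.0553), D16 (0.0715) or D19 (0.0881), and ENSOARG00000010539 fell by 2.17 (limma, adjusted p 0.00207). ENSOARG00000007684 was at 3.64 and 2.90 in D16 and D19 but at 5.96 in D20, within the control range of 5.30 to 6.55, and its difference of −1.86 was not called (limma, adjusted p 0.0519).

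The genes with the lowest p in cardiomyocytes, among called genes above the median level whose groups did not overlap, were looked up in tissue. ENSOARG00000006624 rose by 1.85 in cardiomyocytes (limma, adjusted p 9.69e-05) and by 1.48 in left tissue (limma, adjusted p 0.0004), where S3, S4 and C1 stood at 6.77, 7.05 and 6.51 log2 CPM and D16, D15 and D19 at 8.24, 8.62 and 7.90. ENSOARG00000004857 rose by 1.80 in cardiomyocytes (limma, adjusted p 0.000116). In left tissue it rose by 1.91 ± 0.36 (SE; limma, adjusted p 0.00571), from 6.51, 5.76 and 6.01 to 7.90, 7.95 and 8.17 in the same order of sheep. Right tissue showed 0.73 for this gene (limma, adjusted p 0.335), with chronic sheep D15 at 6.30 inside the control range and D16 at 7.85, and the difference between sides in tissue had an adjusted p of 0.652 (limma). Each of these risers was thus called in both materials on the left.

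The cardiomyocyte fallers named by that rule were not called in left tissue. ENSOARG00000007840 fell by 2.0 in cardiomyocytes (limma, adjusted p 3.45e-05), where the control mean was 9.46 and the chronic mean 7.45 log2 CPM. In left tissue it stood at 4.0, 4.0 and 5.53 in S3, S4 and C1 and 3.94, 4.93 and 4.68 in D16, D15 and D19, a difference of 0.0061 (limma, adjusted p 0.996). ENSOARG00000007984 fell by 3.02 in cardiomyocytes (limma, adjusted p 1.43e-05). Its left tissue difference was 1.44 ± 0.89 (SE; limma, adjusted p 0.351), with controls at 1.57, 2.04 and −0.35 and chronic sheep D16, D15 and D19 at 1.88, 4.77 and 0.94. D15, which gave no cardiomyocytes, stood apart in that gene, and was at 5.15 in right tissue as well.

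A set of 6 genes was called higher in left tissue and lower in left cardiomyocytes, and 0 genes the reverse; in all 6 the groups did not overlap in either material. The pair with the lowest adjusted p in cardiomyocytes, chosen after the values were seen, was ENSOARG00000001574 and ENSOARG00000010939. In tissue ENSOARG00000001574 was at 1.82, 2.28 and 1.55 log2 CPM in S3, S4 and C1 and at 3.19, 4.95 and 3.16 in D16, D15 and D19, with D15 highest. The tissue difference was 1.89 (limma, adjusted p 0.0258). In cardiomyocytes the gene was at 9.91, 9.94 and 9.09 in S3, S4 and C1 and at 7.30, 7.17 and 7.02 in D16, D19 and D20, a difference of −2.48 (limma, adjusted p 0.00111). Its tissue call was lost without S3 (adjusted p 0.0881), C1 (0.106) or D15 (0.0508), with only the 6 tissue libraries (0.0579) and with voom weights (0.0529).

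ENSOARG00000010939 stood in tissue at 4.56, 4.0 and −0.64 in S3, S4 and C1 and at 5.71, 7.92 and 5.49 in D16, D15 and D19. C1 was far below the other controls and D15 above the other chronic sheep. The tissue difference of 3.73 (limma, adjusted p 0.0373) was 2.09 without C1 (adjusted p 0.129), and the call was also lost without D15 (0.140), D16 (0.0671) or D19 (0.0608). It was lost too without sheep in the model (0.0586), with left samples alone (0.0826), with only the 6 tissue libraries (0.126) and with sample quality weights (0.0535). In cardiomyocytes the gene was at 9.84, 8.81 and 8.44 in S3, S4 and C1 and 6.59, 6.63 and 6.83 in D16, D19 and D20, a difference of −2.35 (limma, adjusted p 0.00179). Over all genes tested, the number called in opposite directions was 2 without D15, 1 without S3, 2 without S4, C1 or D16, and 3 without D19. In a fit of only the 6 tissue libraries it was 1. These counts can include genes outside the 6. Of the 6, only ENSOARG00000012809 stayed opposite without D15 and only ENSOARG00000025194 without C1. Without D19 only ENSOARG00000001574 and ENSOARG00000025194 of the 6 did. The tissue call of 1 of the 6 genes, ENSOARG00000012809, was kept without each sheep, with a difference of 0.92 (limma, adjusted p 0.00738) beside −0.67 in cardiomyocytes (limma, adjusted p 0.0484). Its cardiomyocyte call was lost without each of S3, S4, C1, D16, D19 and D20 (adjusted p 0.0615 to 0.167), without sheep in the model (0.0717) and with left samples alone (0.0763). D15 was the highest of the chronic tissue libraries in all 6 genes.

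**Figure D4:**
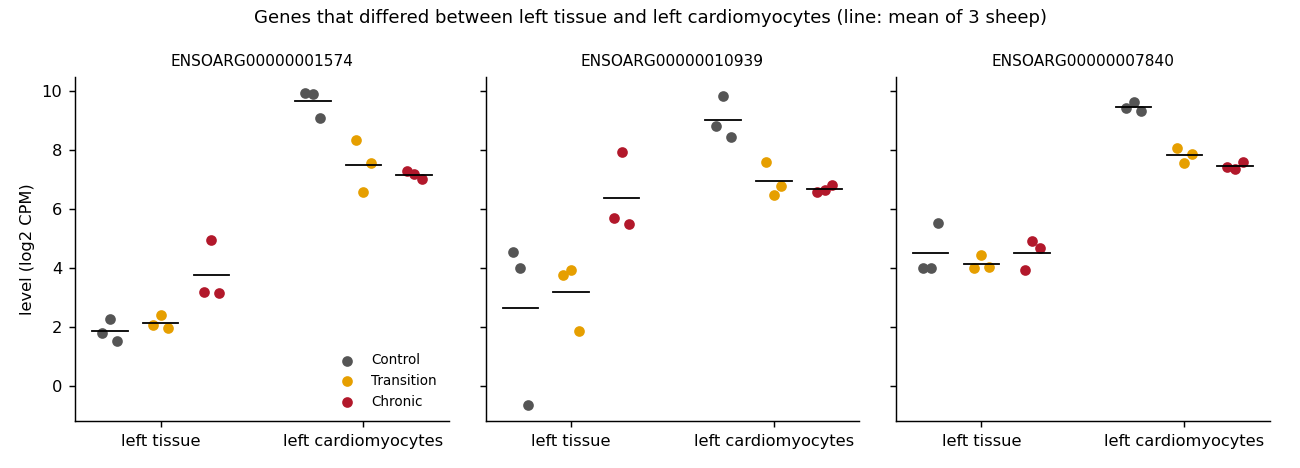
Level (log2 CPM) of 3 genes in left tissue and left cardiomyocytes of control (grey), transition (orange) and chronic (red) sheep, 1 point per sheep, with a line at the mean of 3 sheep; the tables were normalised separately. ENSOARG00000001574 and ENSOARG00000010939 rose in chronic tissue and fell in chronic cardiomyocytes, and ENSOARG00000007840 fell in cardiomyocytes with equal means in tissue.

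Calls that did not hang on 1 sheep formed a smaller set. With each of the 6 compared sheep left out in turn, 163 risers (29.9%) and 89 fallers (23.5%) stayed called every time, and their median changes were 3.04-fold higher and 2.31-fold lower. Of these, 56 and 19 were also called in right tissue in the same direction, and 89 and 35 in left cardiomyocytes. Of all genes tested, 0.949% rose and 0.308% fell in right tissue, and 3.84% and 3.8% in left cardiomyocytes. The set was selected on left tissue, and the same sheep gave the right tissue and most of the cardiomyocytes. These counts are therefore no separate evidence. No called gene changed direction in any setting run, but not every setting could have reversed one. Fits that changed only the filter, the sheep term or the libraries outside the 6 keep the group means. Leaving out 1 sheep cannot reverse a gene whose groups do not overlap, as held for 537 risers and 372 fallers. The plot of calls by setting gives the counts under each alternative.

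**Figure D5:**
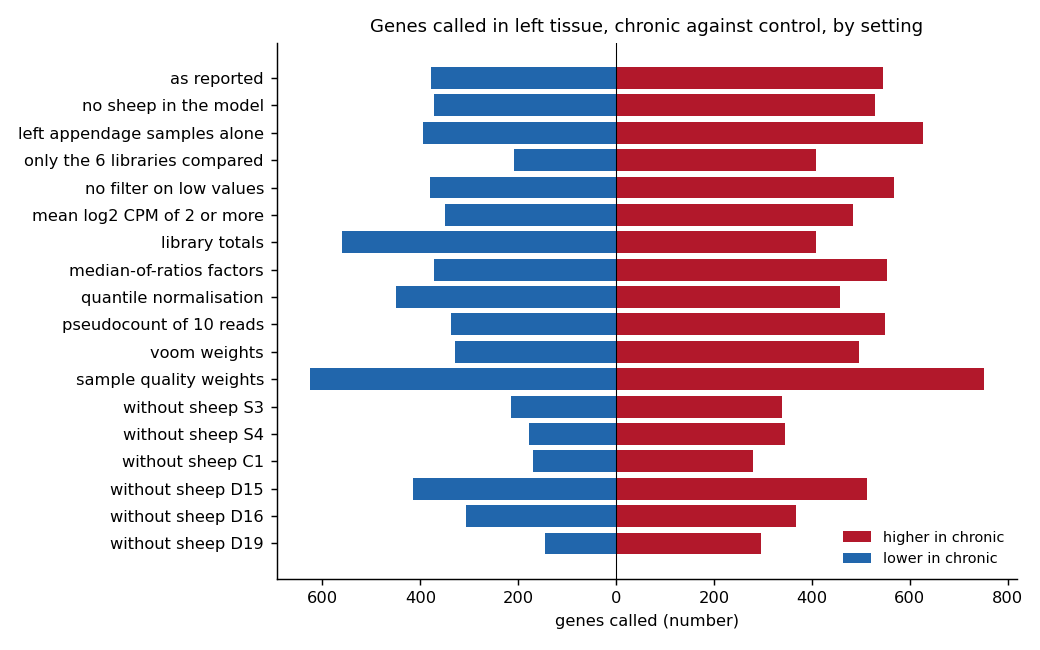
Number of genes called higher (red, to the right) and lower (blue, to the left) in chronic left tissue under each setting, the first bar being the counts of 546 and 378. Leaving out C1, D19, S3, S4 or D16 shortens both bars, sample quality weights lengthen both (751 and 625), and library totals turn the balance to 409 higher and 561 lower.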

How the data were processed

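RNA from appendage tissue and isolated cardiomyocytes was made into libraries with the NEBNext Ultra kit, per the labels' protocols. Tools named in the submitters' processing notes are bcl2fastq, cutadapt, RSEM and limma, with no version or order. The sources used here do not name the aligner, genome build, annotation or strand setting, so values of genes that overlap or resemble each other are uncertain. The deposited values are log2 CPM, 1 column per sheep and region, with lanes merged by the authors. Each deposited log2 value was a whole number of reads plus 0.5 over a scaled library size: 237366 of 237366 tissue and 238716 of 238716 cardiomyocyte values came out whole within 0.05 reads. Every column was tied to a sheep (0 were not).

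In each table, limma 3.58.1 (R 4.3.3) fitted 6 group means to 18 columns on the deposited log2 scale, with a mean-variance trend, after genes with a mean under 0 were left out. Changes of scarce genes are understated by the 0.5 added. Left and right samples of a sheep are paired by the sheep IDs in the labels, so sheep entered as a random effect (consensus correlation 0.294 in tissue and 0.470 in cardiomyocytes). Deviations of a sheep's left and right samples correlated at −0.0053 (D27) to 0.560 (D15) across genes in tissue. Adjustment of p-values was by Benjamini-Hochberg over all genes tested, with a threshold of 0.05, and they rest on the spread between sheep, pooled over groups. Chi-square per degree of freedom between libraries of a compared group was 18.3 to 30.4, so no library repeated another. The model was also run on simulated reads, in which every gene was given the same spread between sheep beyond that of counting reads. Real genes differed in spread, so that run does not cover genes whose sheep varied widely.

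Alternatives were other scalings, filters, a pseudocount of 10 reads, voom weights, sample quality weights, fewer libraries, no sheep term and leaving out each sheep. On cardiomyocytes only library totals, left samples alone, no sheep term and leaving out a sheep were run. The genes named were, per comparison, up to 2 a direction with the lowest p among called genes above the median level whose groups did not overlap. Members, lists and this rule were chosen with earlier results of these data known. Gene and marker lists were left out, since 0 IDs matched a symbol.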

Additional observations from a re-analysis of the deposited data

Results flagged for a closer look

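Left tissue and left cardiomyocytes gave opposite calls for 6 genes, each higher in chronic tissue and lower in chronic cardiomyocytes. The difference between the materials was not tested, because the tables were normalised separately. In all 6 the chronic tissue value was highest in D15, which gave no cardiomyocytes. Without D15, 2 genes of all tested were called in opposite directions, and of the 6 only ENSOARG00000012809 was among them. In control sheep the 6 genes stood a median of 4.60 log2 higher in the cardiomyocyte table than in the tissue table (0.80 to 7.77). The median over all genes tested in both was −0.33. In chronic sheep the medians were 1.01 (−1.09 to 3.40) and −0.34. The part of single sheep, of cell composition and of this difference in level in the pattern was not tested further.

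In cardiomyocytes the chronic change differed between left and right for 44 of 12279 genes tested (limma test of the difference, adjusted p under 0.05). Tissue gave 0 of 12333. In cardiomyocytes 35 of the 44 had a more positive and 9 a more negative left change. The count was 1 without sheep in the model, 19 with library totals, 1 without C1, 2 without D19, 4 without D16, 6 without S3, 11 without S4 and 69 without D20. ENSOARG00000004857, which rose in left tissue, differed between sides by 1.30 in cardiomyocytes (limma, adjusted p 0.0181).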

How the results depend on the processing

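The 10 genes named by the rule of lowest p kept their call and direction in the comparison they were named for. This held under each alternative run for that comparison that left the transition sheep in. For left cardiomyocytes these were no sheep term, left samples alone, library totals and leaving out a sheep. The filters, the pseudocount, the weights and the other scalings were not run on cardiomyocytes. Calls of the named genes in other comparisons, and those of the genes called in opposite directions, were lost under some settings, as given with them. No gene called in left tissue changed direction, which several settings could not alter, since they keep the group means. Without the replicate block of sheep, left tissue counts were 528 higher and 372 lower, and the side difference in cardiomyocytes was called for 1 gene in place of 44. Left tissue with only the 6 compared libraries gave 408 higher and 208 lower, with fewer degrees of freedom. Sample quality weights gave 751 and 625 in left tissue, 769 in right tissue and 35 for chronic minus transition; the cause was not tested. A fit of left samples alone gave 8 for chronic minus transition. Quantile normalisation gave 457 and 449. With library totals the side difference in cardiomyocytes was called for 19 genes, and left tissue counts were 409 and 561. Leaving out 1 of the control or chronic sheep at a time gave 280 to 513 risers and 145 to 416 fallers in left tissue, 38 to 429 calls in right tissue, 0 to 1 for the side difference in tissue, 0 to 11 for chronic minus transition, 320 to 627 in left cardiomyocytes and 1 to 69 for the side difference in cardiomyocytes. The settings without a transition sheep were chosen after seeing the data and gave, for chronic minus transition, 0 without D24, 1 without D27 and 1 without D30; in left tissue against control they gave 434 higher and 277 lower, 558 and 397, and 510 and 325, in right tissue 84, 163 and 131, and for the side difference in tissue 0, 3 and 0. With 3 sheep a group, and a median standard error of 0.42 in the lowest of 4 bins of expression, smaller changes of scarce genes were not detectable.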

Other observations

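Some genes lay on opposite sides of a cut at 10 reads in the left control and chronic libraries. Of the 13187 listed genes, 522 had under 10 reads in every left control library, and 45 of these had at least 10 in every chronic library. In the other direction 614 genes had under 10 reads in every chronic library and 65 of them at least 10 in every control library. No gene at 0 reads in all 3 control libraries (13 genes) reached 10 in every chronic library, nor did any of the 15 genes at 0 in all chronic libraries reach it in the controls. These counts were not scaled for depth or tested, and a gene just below the cut in a group and just above it in the other would enter them.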
